A study of Bos taurus with 13 samples.

Results

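The abundance of 4 scarce microRNAs (miRNAs), bta-miR-874, bta-miR-502a, bta-miR-671 and bta-miR-652, was followed in extracellular vesicles (EVs) of bovine follicular fluid across the energy status of the donor animals. They are 4 of the 311 miRNAs listed for at least 1 group and of the 262 listed for every group, and they were chosen by name, for measured values: the choice used the libraries of cows with constantly positive energy, cows with constantly negative energy and heifers. The choice described 3 of them as higher in the constantly positive cows than in heifers, and 2 as lower in the constantly negative than in the constantly positive cows. Every fold change between those 3 groups is therefore a description here, without a test, and only the comparison of the 2 sampling times of transient cows was tested for these miRNAs.

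Follicular fluid was taken from Holstein-Friesian cows and heifers by ovum pick-up, and EVs were isolated by ultracentrifugation. Transient cows (TCs) had negative energy balance at weeks 5 and 6 after calving (3 pools, 11 cows) and positive balance at weeks 9 and 10 (3 pools, 7 cows). Always negative cows (ANCs) and always positive cows (APCs) kept 1 status throughout and were sampled at weeks 5 and 6, each as 2 pools that came from 2 cows, while the heifers, labelled positive, gave 3 pools from 8 animals. How many animals entered each pool is not given in the sources used here, nor whether the 7 TCs of the later weeks were among the 11 of the earlier, so all errors and p-values measure the spread between pools. The cows were lactating and the heifers had not calved. Heifers share the positive label with APCs and with TCs at weeks 9 and 10, whereas ANCs and TCs at weeks 5 and 6 differ from heifers both in lactation and in energy label, which cannot be told apart there. Fewer vesicles of a cell type and less of a miRNA per vesicle cannot be told apart in such pools.

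A miRNA is a short RNA that guides an Argonaute protein to messenger RNAs, mainly through pairing of its seed, the bases near its 5′ end, and thereby lowers the stability or translation of those messengers. In the follicle, EVs carry miRNAs among granulosa cells, theca cells, cumulus cells and the oocyte, and miRNAs of blood can also reach the fluid. Most miRNAs encoded inside a protein-coding gene are cut from the transcript of that host gene or from a transcript of their own. In the RefSeq gene table of the ARS-UCD2.0 assembly, which is not the UMD3.1 assembly of the deposited values, the gene of miR-874 lies within KLHL3, which encodes a substrate adaptor of a cullin ubiquitin ligase. The gene of miR-671 lies within CHPF2, for an enzyme that builds chondroitin chains, and that of miR-652 within TMEM164, for a transmembrane protein. miR-502a has 2 genes there, both within CLCN5, which encodes a chloride/proton exchanger of endosomes, and each has 7 other miRNA genes within 20000 bases (the other copy of miR-502a with miR-188, miR-362, miR-500, miR-502b, miR-532 and miR-660). The other members have 0 miRNA genes that near. Reads of miR-502a cannot be divided between its copies, and near-identical miRNAs of the same cluster could share reads with it.

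All 4 miRNAs were scarce in every library. Each value below is in CPM (reads of a miRNA relative to the effective size of its library), after 1 scaling of all 13 libraries by the trimmed mean of M-values (TMM), and the reads themselves were recovered from the deposited values. The libraries held 145030 to 421435 reads on listed miRNAs (median 327359), and 3 reads, taken as the smallest visible abundance, stood at 7.49 to 20.1 CPM. Together the 4 miRNAs took 0.0209% to 0.0880% of the reads of a library. miR-671 had 19 to 117 reads per library, miR-652 16 to 110, miR-874 5 to 86 and miR-502a 2 to 55. Of the 262 miRNAs ranked by CPM, miR-671 lay between places 114 and 168, miR-652 between 119 and 191, miR-874 between 127 and 244 and miR-502a between 145 and 256. The miRNAs expected of the sampled tissue were present: miR-21-5p, abundant in many cell types, ranged from 46413 to 191365 CPM, and the gonadal miR-202 from 2982 to 8014 CPM.

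miR-874 has been studied in human cells as a repressor of aquaporin 3 and other messengers. It stood at 172 and 287 CPM in the 2 APC pools and at 27.7 and 60.3 CPM in the 2 ANC pools. The heifer pools held 49.4, 24.97 and 27.0 CPM. The TC pools of weeks 5 and 6 held 85.7, 22.8 and 206 CPM, and those of weeks 9 and 10 held 12.2, 32.3 and 23.6 CPM. Its level was therefore high in both APC pools and in 1 TC pool of weeks 5 and 6, intermediate in another, and low in all pools of heifers, ANCs and TCs of weeks 9 and 10. The third pool of TCs at weeks 5 and 6 lay between the APC pools, and the second lay under every heifer pool, a 9.05-fold range within 1 group.

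miR-502a belongs to an X-linked cluster of mammalian miRNAs. It reached 106 and 184 CPM in the APC pools, 19.8 and 80.3 CPM in the ANC pools, and 9.88, 7.49 and 35.0 CPM in the heifer pools. TC pools of weeks 5 and 6 held 65.1, 14.2 and 92.7 CPM, and TC pools of weeks 9 and 10 held 12.2, 21.5 and 31.5 CPM. Both APC pools exceeded every other pool of the study. At the low end the counts were few: the first 2 heifer pools had 2 and 3 reads, at or under the visible floor, and the exact Poisson interval (95%) of the pool with 2 reads ran from 1.20 to 35.7 CPM. The interval of the lower APC pool, with 31 reads, ran from 72.3 to 151 CPM. Such intervals cover counting error only.

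miR-671 is known in mammals because its precursor gives a miRNA that directs cleavage of the circular RNA CDR1as. Its APC pools held 353 and 391 CPM and its heifer pools 128, 142 and 154 CPM, with little spread within either group. The ANC pools differed from each other, with 75.3 and 187 CPM. At weeks 5 and 6 the TC pools held 260, 176 and 395 CPM, all above the heifers. At weeks 9 and 10 they held 165, 108 and 73.5 CPM, all under the TC pools of the earlier weeks on the common scale. In the deposited values the first pool of weeks 9 and 10, at 186.93, stood above the second of weeks 5 and 6, at 183.39.

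miR-652, whose host gene is also X-linked, showed 357 and 254 CPM in APCs, 87.2 and 114 CPM in ANCs, and 114, 102 and 129 CPM in heifers. The TC pools had 144, 74.0 and 378 CPM at weeks 5 and 6, and 73.0, 57.4 and 44.6 CPM at weeks 9 and 10. On the common scale every pool of weeks 9 and 10 was lower than every other pool of the study, ANC and heifer pools included. The margin was narrow: the first of them had 30 reads, and the second TC pool of weeks 5 and 6 had 26. In the deposited values that first pool, at 82.47, stood above this second pool, at 76.91, and above the first ANC pool, at 81.51. The third TC pool of weeks 5 and 6 was the highest of the 13.

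**Figure D1:**
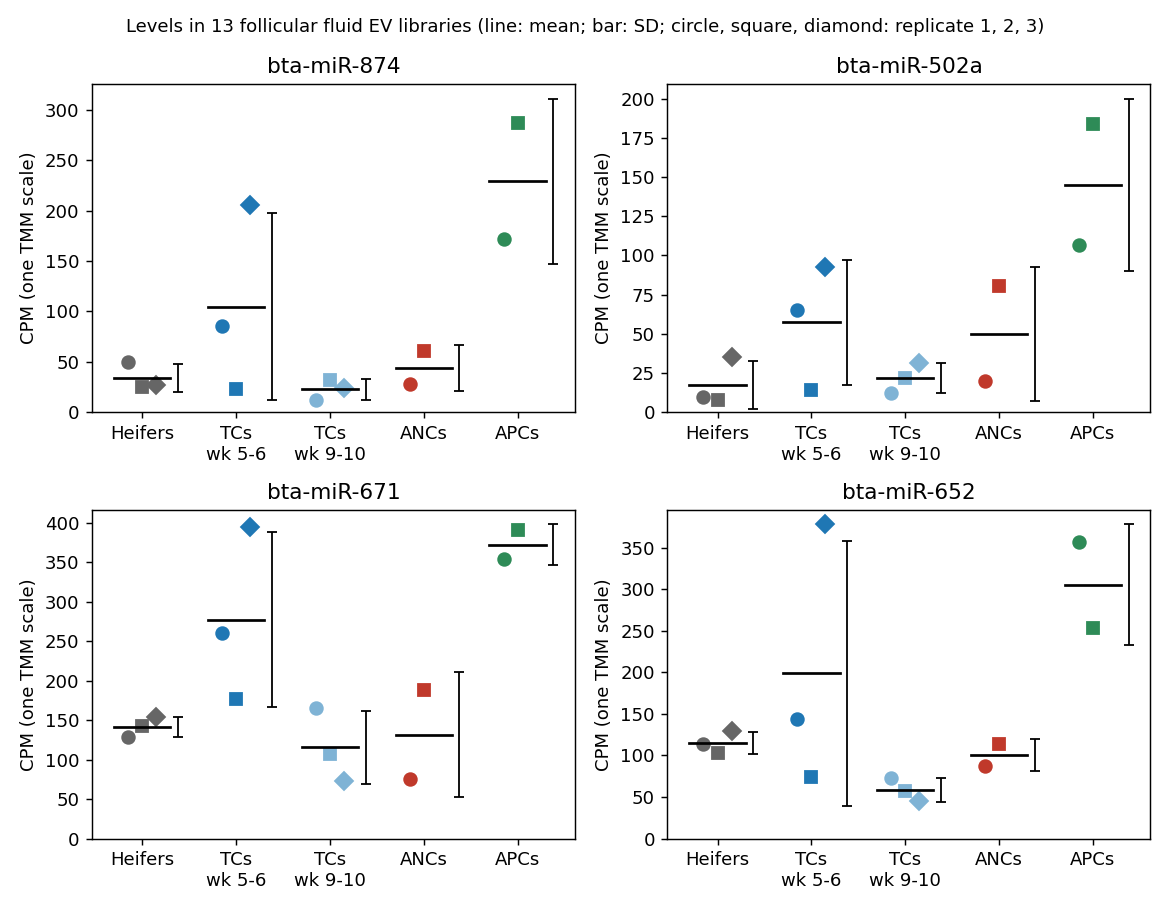
Level of each miRNA in CPM (vertical axis, linear from 0, a separate scale for each panel) in the 13 pools by group (horizontal axis); each point is a pool, the line the group mean and the bar 1 SD. The APC pools stand at the top of the groups, 1 TC pool of weeks 5 and 6 (diamond) reaches 206 CPM for miR-874 and 378 CPM for miR-652, and the pools of weeks 9 and 10 lie low.

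The groups kept nearly the same order for all 4 miRNAs. APCs had the highest mean, with 229 ± 81.8 CPM for miR-874, 145 ± 54.7 for miR-502a, 372 ± 26.4 for miR-671 and 305 ± 72.8 for miR-652 (SD, n = 2). TCs at weeks 5 and 6 came second, with 105 ± 93.1, 57.3 ± 39.8, 277 ± 110 and 199 ± 159 CPM in the same order of miRNAs (SD, n = 3). TCs at weeks 9 and 10 came last for miR-874, miR-671 and miR-652, with 22.7 ± 10.1, 115 ± 46.4 and 58.3 ± 14.2 CPM (SD, n = 3), while heifers came last for miR-502a, with 17.5 ± 15.3 CPM (SD, n = 3). ANCs and heifers held the places between for miR-874, miR-671 and miR-652. Most neighbours in these orders overlapped in their pools. Pools of neighbouring groups were separate only for miR-502a between APCs and TCs of weeks 5 and 6, for miR-671 between TCs of weeks 5 and 6 and heifers, and for miR-652 between ANCs and TCs of weeks 9 and 10. The last of these did not hold in the deposited values, at 82.47 in the first TC pool of weeks 9 and 10 and 81.51 in the first ANC pool.

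Against heifers, the APC pools were higher for all 4 miRNAs and did not overlap with heifers for any of them. Of the 227 miRNAs tested in that comparison, 25 (11.0%) were at least 2-fold higher and 37 (16.3%) separate and higher, and the members were chosen with this contrast known, so nothing is read from their count. On the scale of log2(CPM + 5), on which all fold changes are given, the difference was 2.89 for miR-502a (SE 0.62), 2.60 for miR-874 (SE 0.45), 1.37 for miR-671 (SE 0.31) and 1.36 for miR-652 (SE 0.34). Scaling mattered for the size. The median of all miRNAs tested was -0.11 with TMM over the 13 libraries and -0.54 with plain library totals, and with library totals miR-671 and miR-652 stood at 0.94 and 0.93, under 2-fold. Relative to the median of all miRNAs the values were 1.48 and 1.47 with TMM, and 1.48 and 1.47 with library totals. A scaling shifts all miRNAs of a library nearly alike, so nothing is read from this likeness.

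ANC pools were lower than APC pools for all 4 miRNAs, again without overlap. Among the 211 miRNAs tested between ANCs and APCs, 29 (13.7%) were at least 2-fold lower and 46 (21.8%) separate and lower. The log2 difference of ANCs from APCs was -2.30 for miR-874 (SE 0.58), -1.66 for miR-502a (SE 0.74), -1.60 for miR-671 (SE 0.57) and -1.55 for miR-652 (SE 0.46). The second ANC pool was the nearer to APCs for each miRNA, and without it the difference of miR-502a went from -1.66 to -2.55, whereas without the first ANC pool it was -0.76 and that of miR-671 -0.97. Both comparisons above use the same APC pools. The choice of members described 3 miRNAs as higher in APCs than in heifers and 2 as lower in ANCs than in APCs, and with the common scaling all 4 were at least 2-fold apart in each of these comparisons.

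ANCs and heifers had similar means for 3 of the miRNAs. The log2 difference of ANCs from heifers was 0.31 for miR-874 (SE 0.55), -0.23 for miR-671 (SE 0.48) and -0.19 for miR-652 (SE 0.42), and pools overlapped for each of them. The sign rested on 1 ANC pool for miR-874, which went from -0.19 without the second pool to 0.80 without the first, and for miR-671, which went from -0.86 to 0.40. miR-502a had too few reads to pass the filter on low counts in this comparison, and its difference of 1.24 (SE 0.72) came from overlapping pools.

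The comparison of TCs at the 2 times asked how the miRNAs stood once transient cows had recovered positive energy balance, in pools that the choice of members had not used. All 4 were lower at weeks 9 and 10, where 122 of the 223 miRNAs tested (54.7%) were lower by any amount, and none of the 4 passed the test. Across all miRNAs tested, limma called 0 (0.0%), where a call needs a 2-fold difference, p under 0.05 and adjusted p no higher than 0.25, with 15 (6.73%) at an unadjusted p-value under 0.05. edgeR's quasi-likelihood test on the recovered reads also called 0, with 23 at an unadjusted p-value under 0.05. DESeq2, with 26 at that level, called 9 of the 92 miRNAs to which it gave an adjusted p-value, and the 4 members were among the 131 without one, so that a call was not possible for them. Without that step, in an alternative added after seeing the data, DESeq2 called 1 miRNA, which was none of the 4, and its adjusted p-values were 0.321 for miR-874, miR-671 and miR-652 and 0.431 for miR-502a. The unadjusted p-values of DESeq2 were 0.00796 for miR-874, 0.00894 for miR-652, 0.0148 for miR-671 and 0.0773 for miR-502a.

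For miR-671 the pools of the 2 times did not overlap on the common scale, with a log2 difference of -1.23 (SE 0.47, 95% interval -2.31 to -0.14). Its p-value in limma was 0.0317, its adjusted p-value 0.544 and its exact two-sided permutation p 0.1, the smallest that 3 pools against 3 allow. For miR-652 the difference was -1.41 (SE 0.61, 95% interval -2.81 to -0.00404), also without overlap of pools on the common scale. Its p-value in limma was 0.0495, its adjusted p-value 0.544 and its exact permutation p 0.1. Of all 223 miRNAs tested, 13 (5.83%) were separate and lower at weeks 9 and 10. In the deposited values the pools of miR-671 and of miR-652 overlapped, so their separation and permutation p belong to the common scale.

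miR-874 had the largest difference of the members between the TC times, -1.62 (SE 0.75, 95% interval -3.36 to 0.12), with overlapping pools, limma's p = 0.0643, an adjusted p-value of 0.544 and an exact permutation p of 0.3. miR-502a differed by -0.996 (SE 0.68, 95% interval -2.57 to 0.58), with overlapping pools, limma's p = 0.184, an adjusted p-value of 0.609 and an exact permutation p of 0.3. Differences of at least 2-fold lower were seen for 20 of all 223 miRNAs (8.97%), and for miR-874, miR-671 and miR-652 among the members.

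The second pool of TCs at weeks 5 and 6 decided the calls between the TC times. Without it, limma called 21 miRNAs, the 4 members included, and the log2 differences were -2.39 for miR-874 (adjusted p = 0.215), -1.70 for miR-502a (0.222), -1.51 for miR-671 (0.222) and -1.94 for miR-652 (0.222). That pool held the lowest level of its group for each member (22.8, 14.2, 176 and 74.0 CPM in the same order). Leaving it out therefore enlarges their differences, and nothing is read from these calls. With all pools, 0 of 223 miRNAs (0.0%) were called. Leaving out any other pool of the 2 groups left 0 calls. Without the third pool of weeks 5 and 6, which held the highest levels, the differences were -0.93, -0.52, -0.94 and -0.80 in the same order. The day of RNA measurement, as the study's supplement gives it, separates the first pool of each time from the other 2. Within the first day, with 1 pool per time, the difference was -2.40 for miR-874, -2.03 for miR-502a, -0.64 for miR-671 and -0.93 for miR-652. Within the second day, with 2 pools per time, it was -1.23, -0.48, -1.52 and -1.64, so that the mean of each miRNA was lower at weeks 9 and 10 on both days. For miR-874 and miR-502a the second day rested on the third pool of weeks 5 and 6. Both later pools of that day exceeded the second pool of weeks 5 and 6 (22.8 and 14.2 CPM).

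Against heifers, TCs at weeks 5 and 6 stood at a log2 difference of 1.38 for miR-502a (SE 0.74), 1.12 for miR-874 (SE 0.74), 0.88 for miR-671 (SE 0.36) and 0.46 for miR-652 (SE 0.57). Without the third TC pool the difference of miR-652 was -0.14 and that of miR-874 0.43, and without the second TC pool they were 0.997 and 1.89. Only miR-671 had separate pools among the 4, where 18 of the 227 miRNAs tested (7.93%) were separate and higher. At weeks 9 and 10 the values were -0.94 for miR-652 (SE 0.32), -0.50 for miR-874 (SE 0.45) and -0.35 for miR-671 (SE 0.37). miR-652 alone was separate from heifers, where 16 of the 229 tested (6.99%) were separate and lower. miR-502a did not pass the filter at the later weeks, with a difference of 0.39 (SE 0.55).

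At the same weeks after calving, APCs exceeded TCs by 1.51 for miR-502a (SE 0.77), 1.49 for miR-874 (SE 0.86), 0.89 for miR-652 (SE 0.71) and 0.49 for miR-671 (SE 0.48), and only miR-502a had separate pools (13 of 225 miRNAs, 5.78%, were separate and higher). ANCs differed from the same TC pools by -1.11 for miR-671 (SE 0.56), -0.81 for miR-874 (SE 0.87), -0.66 for miR-652 (SE 0.69) and -0.14 for miR-502a (SE 0.87), with overlapping pools for each. The sign of miR-502a against ANCs rested on single pools, with -1.04 without the second and 0.75 without the first ANC pool. The size for miR-874 and miR-652 also rested on single TC pools. Without the second pool, APCs exceeded TCs by 0.72 and 0.36, and ANCs differed by -1.58 and -1.19. Without the third pool APCs exceeded TCs by 2.18 and 1.497, and ANCs differed by -0.12 and -0.05. The mean of TCs at weeks 5 and 6, labelled early negative, lay between the ANC and the APC means for all 4 miRNAs.

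**Figure D2:**
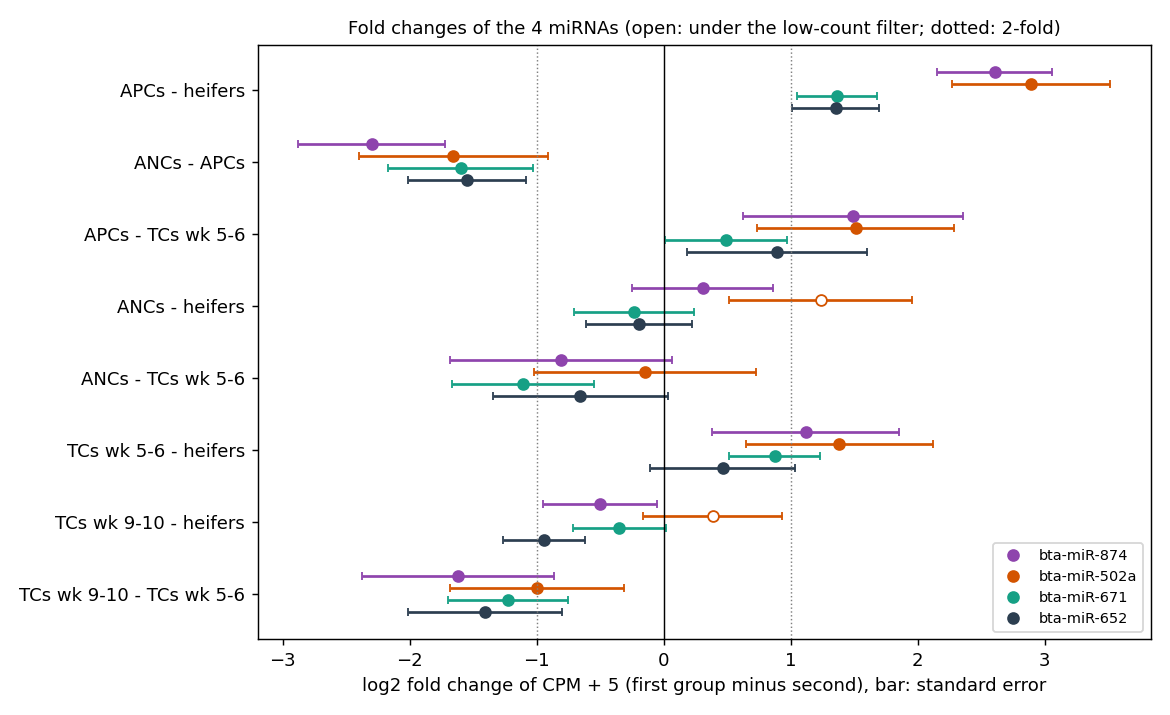
Log2 difference of CPM + 5 (horizontal axis, first group minus second, bar: standard error) of the 4 miRNAs in 8 comparisons (rows). All 4 lie right of the 2-fold line for APCs minus heifers and left of it for ANCs minus APCs, and all 4 lie left of 0 for TCs at weeks 9 and 10 minus weeks 5 and 6, where none passed the test.

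The levels of the 4 miRNAs correlated over the pools, a part of which the choice of members on the APC, ANC and heifer values builds in. Pearson's r of log2(CPM + 5) over the 13 libraries was 0.72 to 0.88 for the 6 pairs of members, and 0.50 to 0.74 for their deviations from the group means. The pair of miR-874 and miR-652 stood highest, with r = 0.88 (Spearman's rho 0.82), and the pair of miR-502a and miR-652 lowest, with r = 0.72 (rho 0.68). Such values describe these libraries, which share their scaling and their group structure. The nearest miRNAs were sought among 243 others per member.

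The miRNAs whose levels were most like those of miR-874 were miR-22-3p (r = 0.95, rho 0.94), miR-107 (r = 0.93, rho 0.89) and miR-103 (r = 0.93, rho 0.93). miR-502a was nearest to miR-873 (r = 0.95, rho 0.95), miR-22-3p (r = 0.94, rho 0.91) and miR-320a (r = 0.93, rho 0.91). These are far more abundant miRNAs, with miR-873 at 497 to 10300.0 CPM and miR-320a at 20177 to 168849 CPM. miR-671 was nearest to miR-652 (r = 0.88, rho 0.82), miR-874 (r = 0.82, rho 0.65) and miR-23a (r = 0.81, rho 0.77), and miR-652 to miR-151-5p (r = 0.88, rho 0.88), miR-874 (r = 0.88, rho 0.82) and miR-671 (r = 0.88, rho 0.82). Without the 2 libraries farthest from the median of the member, r of the nearest miRNA was 0.90 for miR-874, 0.94 for miR-502a, 0.80 for miR-671 and 0.78 for miR-652. Members and these miRNAs were high in the same libraries, the APC pools and the third TC pool of weeks 5 and 6.

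The most abundant genomic neighbours of miR-502a, miR-532 and miR-660, were not called in any comparison described here. Of the 8 other miRNAs listed for the cluster, 5 appear in the files, and miR-532 and miR-660 alone had enough reads to be tested between APCs and heifers, between ANCs and APCs and between the TC times. By limma, edgeR and DESeq2 alike, these tests made 0 calls for the pair, and 0 of its unadjusted p-values were under 0.05 (14.5%, 0.0% and 0.0% of all miRNAs tested were called by limma). miR-532 stood at 841 and 541 CPM in APCs, 757 and 522 CPM in ANCs and 709 to 1071 CPM in heifers, and had r = -0.72 (rho -0.68) with miR-502a over the 13 libraries. miR-660 stood at 1345 and 1590 CPM in APCs and 974 to 1261 CPM in heifers, with r = 0.25 (rho 0.15). The 3 cluster miRNAs listed for every group summed to 1927 to 3210 CPM. The scarce miR-362-5p among them ranged from 2.43 to 26.8 CPM, and miR-502a itself from 7.49 to 184 CPM. miR-362-3p, listed for APCs, ANCs and TCs of weeks 5 and 6 alone, had 1 to 11 reads per library and was too scarce to be tested. It stood at 27.4 and 36.7 CPM in APCs, at 3.96 and 6.70 CPM in ANCs, and at 17.1, 5.69 and 20.6 CPM in the TC pools. Its pools were separate and lower in ANCs than in APCs (log2 difference -1.85, SE 0.64), as those of miR-502a were. miR-500 (10.8 to 20.6 CPM, in 6 libraries) was also listed for some groups only. miR-362-5p, listed for every group and too scarce to be tested, went the other way. It stood at 19.8 and 26.8 CPM in ANCs and at 6.86 and 23.4 CPM in APCs. ANCs differed from APCs by 0.61 (SE 0.70, overlapping pools), and from heifers by 1.02 (SE 0.61, separate pools).

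**Figure D3:**
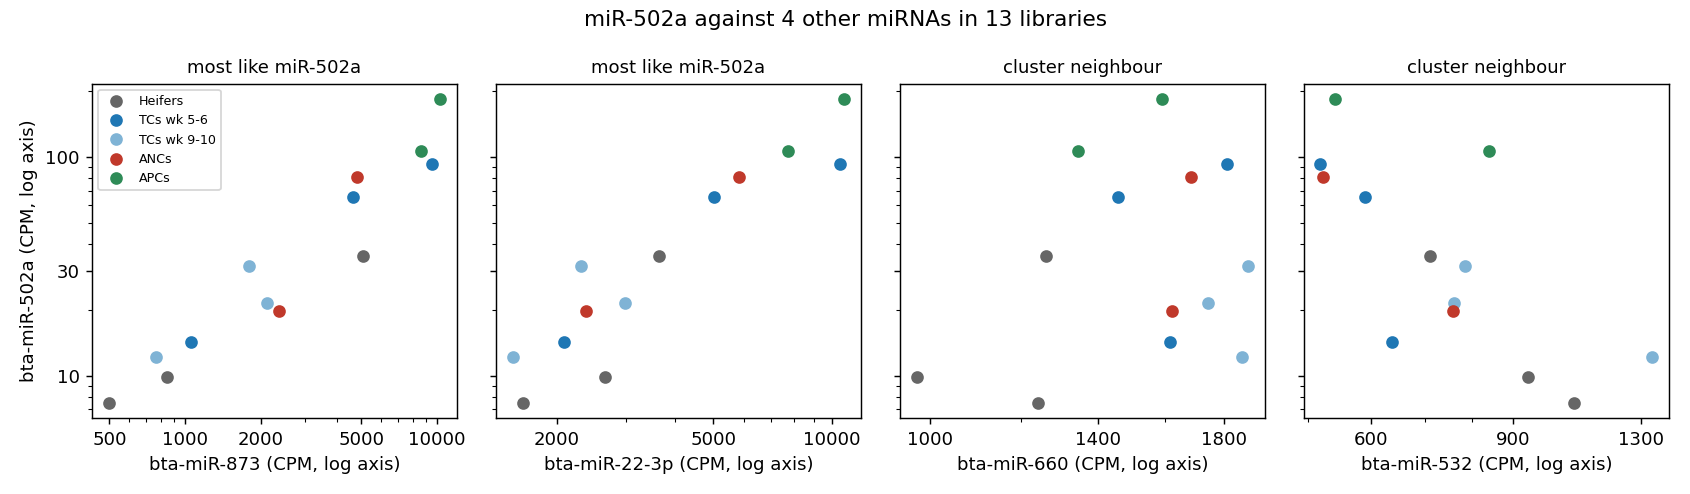
miR-502a in CPM (vertical log axis) against miR-873, miR-22-3p, miR-660 and miR-532 in CPM (horizontal log axes) in the 13 libraries, coloured by group. The points climb with miR-873 and miR-22-3p (r = 0.95 and 0.94 on the log2 scale), are scattered against miR-660 (r = 0.25) and fall with miR-532 (r = -0.72).

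Properties of the libraries moved with the 4 miRNAs. The TMM factor, which corrects a library whose reads are taken up by a few abundant miRNAs, was 0.89 and 0.71 in the APC pools and 0.80 in the third TC pool of weeks 5 and 6, against 0.98 to 1.20 in the other 10 libraries. Its r with the level of a member was -0.87 for miR-874, -0.84 for miR-671, -0.78 for miR-652 and -0.74 for miR-502a over the 13 libraries (rho -0.73, -0.76, -0.64 and -0.64), and without the 2 most extreme libraries it was -0.70, -0.76, -0.66 and -0.49. A low factor raises all CPM of a library, and the part of this in the levels was not tested beyond the other scalings. With library totals, where no factor enters, the members still differed by 0.93 to 2.50 between APCs and heifers and by -1.88 to -1.12 between ANCs and APCs. Correlation with the number of reads was weaker, with r = 0.10 to 0.35 (rho -0.02 to 0.44). Without the 2 most extreme libraries it was 0.23 to 0.59, the highest for miR-671.

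Markers of blood cells were summed in the same libraries. The red blood cell markers miR-451 and miR-486, both listed for every group, summed to 2137 to 8934 CPM in APCs, 131 to 1145 CPM in ANCs and 1717 to 3958 CPM in heifers, with miR-451 at 0 reads in 1 ANC pool (the third marker, miR-144, is listed for 3 libraries only). limma called 0 of the 2 between ANCs and APCs, with both at an unadjusted p-value under 0.05, edgeR 0 and DESeq2 2. In the TC pools these 2 markers summed to 751, 942 and 5583 CPM at weeks 5 and 6. At weeks 9 and 10 they summed to 2425, 10962 and 3901 CPM, with overlapping ranges. The 6 white blood cell markers summed to 2144 to 3971 CPM in APCs, 745 to 1580 CPM in ANCs and 4868 to 6077 CPM in heifers. Of the 5 that were tested, 0 were called higher and 2 lower in APCs than in heifers, where 33 of 227 miRNAs (14.5%) were called. The 2 were miR-223 (-1.25 on the log2 scale, limma's adjusted p-value 0.193) and miR-155 (-1.22, limma's adjusted p-value 0.227). Between ANCs and heifers, where 41 of 218 miRNAs (18.8%) were called all 5 white and both red blood cell markers tested were called lower in ANCs, and limma, edgeR and DESeq2 made the same number of calls. Without the first heifer pool 8 miRNAs were called in all, 4 of the white and 0 of the red markers among them, and without the first ANC pool 1 red marker was called. miR-223 differed by -2.88 (SE 0.48, limma's adjusted p-value 0.0289) and miR-451 by -3.86 (SE 0.81, adjusted p-value 0.0344). The part of blood miRNAs in the levels of the 4 members was not tested.

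**Figure D4:**
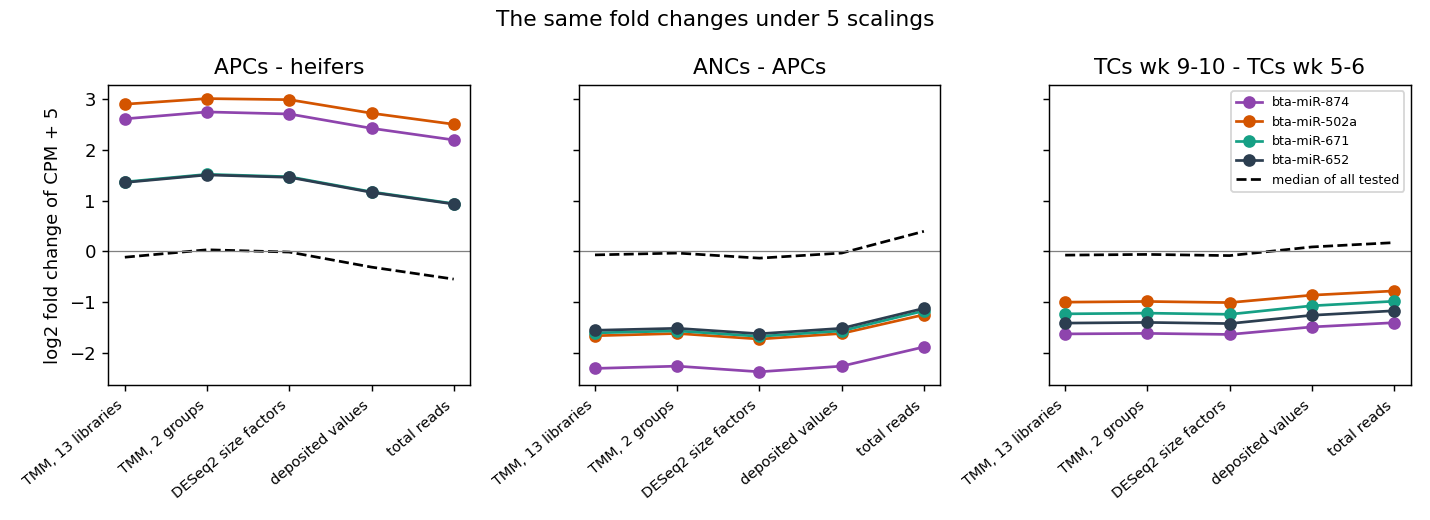
Log2 difference of CPM + 5 (vertical axis) of the 4 miRNAs and the median of all miRNAs tested (dashed) under 5 scalings (horizontal axis) in 3 comparisons. The median moves from -0.11 to -0.54 for APCs minus heifers. The members move with it, since a scaling shifts all miRNAs of a library nearly alike. They keep their direction under each scaling.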

How the data were processed

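Small RNA libraries (QIAseq miRNA kit) of 13 EV pools were analysed. Per the labels and the study's methods, the authors trimmed adaptors with cutadapt 1.11, mapped reads with Bowtie2 2.2.2 to UMD3.1, annotated them against miRBase and normalized them by TMM with edgeR. The deposited values are TMM-normalized CPM. In 7 files TMM takes the deposited total over what plain CPM sums to, and these were recorded as signal, although the authors made them in the same way. Dividing each deposited value by the CPM of 1 read gave a whole number of reads (within 0.1 read) for 3681 of 3681 values. The counts were scaled with 1 TMM over the 262 miRNAs listed for every group.

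Linear models of limma 3.58.1 (moderated variance with trend) were fitted to log2(CPM + 5) of the 2 groups compared, after edgeR 4.0.16 filterByExpr (minimum count 10, minimum total 15), with Benjamini-Hochberg adjustment over all miRNAs tested. The study's thresholds defined a call (log2 difference of 1 or more in size, p under 0.05, adjusted p up to 0.25). The procedure was tested on simulated data. Members get no p outside the TC comparison. Alternatives were other scalings, pseudocounts of 1 and 20 CPM, no filter, edgeR's quasi-likelihood test and DESeq2 1.42.0 on the recovered reads, a fit on 5 groups, the day of RNA measurement, a replicate block and leaving out each replicate.

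The members, marker lists (red and white blood cells, follicular somatic cells, epithelium, liver) and the cluster list were chosen with earlier results of these data known. The miRNAs named are the members, the 5 of the cluster list in the files, and for each member the 3 with the highest correlation. Of each other list, up to 4 are named (those with the highest mean CPM), with called ones and any not listed for every group. Same-numbered pools of TCs at weeks 5 and 6 and of heifers deviated together from their group means (r = 0.19, 0.38 and 0.38), which meets the rule used for pairing (at least 3 pairs, each r above 0.1). ANCs and APCs have 2 pairs only (both r = 0.26). Those of the 2 TC times did not (r = -0.03, -0.04 and 0.11). TCs and heifers were different animals, and every difference and SE given for them comes from the fit without a block. No sequence was used, and positions in the RefSeq table of ARS-UCD2.0 served only to find host genes and neighbours. R 4.3.3, scipy 1.17.1 and matplotlib 3.10.9 were used.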

Additional observations from a re-analysis of the deposited data

Results flagged for a closer look

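For miR-671 and miR-652 the contrast of positive with negative energy balance went opposite ways in transient and in constant cows. On the common scale every TC pool of weeks 9 and 10, with positive balance, lay under every TC pool of weeks 5 and 6. The log2 difference was -1.23 for miR-671 and -1.41 for miR-652. Neither was called (limma's adjusted p-value 0.544 for each), and in the deposited values the TC pools of both overlapped. Every APC pool lay above every ANC pool, with ANCs differing from APCs by -1.60 for miR-671 and -1.55 for miR-652. The contrasts also went opposite ways for miR-874 and miR-502a, with overlapping TC pools. The log2 differences were -1.62 in TCs and -2.30 for ANCs minus APCs for miR-874, and -0.996 and -1.66 for miR-502a. Those of TCs are positive minus negative status, and ANCs minus APCs is negative minus positive. The difference between the 2 contrasts was not tested, since the choice of the members used the APC and ANC pools. The contrast in TCs also spans 2 sampling times, and that in constant cows does not.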

How the results depend on the processing

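All 4 miRNAs stayed lower at weeks 9 and 10 of TCs under each alternative that keeps all pools. None was called under the 11 planned ones that gave them an adjusted p-value (0.453 to 0.659), nor with DESeq2 without independent filtering, added after seeing the data (0.321 to 0.431). DESeq2 with it gave them none. Leaving out 1 pool moved their log2 differences to between -2.39 and -0.93 for miR-874, -1.70 and -0.52 for miR-502a, -1.51 and -0.94 for miR-671, and -1.94 and -0.80 for miR-652. The number of miRNAs called there was 9 with DESeq2, 1 without its independent filtering, and 0 to 21 when 1 pool was left out, 21 without the second pool of weeks 5 and 6.

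For APCs against heifers, 33 miRNAs were called (21 higher, 12 lower), 63 with library totals (14 higher, 49 lower), 49 with deposited values (21 higher, 28 lower), and 2 to 53 without 1 pool, the fewest without the first heifer pool. The difference of miR-671 was 1.51 with TMM of the 2 groups alone, 1.17 with deposited values and 0.94 with library totals. That of miR-652 was 0.93 with library totals and 1.113 to 1.60 without 1 pool. For ANCs against APCs, DESeq2 called 4 miRNAs and leaving out 1 pool 0 to 38, and miR-652 stood at -1.12 with library totals. Without 1 pool, miR-671 lay between -0.86 and 0.40 and miR-874 between -0.19 and 0.80 for ANCs against heifers.

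In the other comparisons, the calls for TCs at weeks 5 and 6 against heifers went from 16 to 26 with library totals, 31 with DESeq2, and 0 to 44 without 1 pool. For TCs at weeks 9 and 10 against heifers the 0 calls became 6 with library totals, 13 with DESeq2, 4 in the fit on 5 groups and 0 to 23 without 1 pool. DESeq2 called 1 miRNA for APCs against TCs (0 to 1 without 1 pool), and 0 to 6 were called for ANCs against TCs without 1 pool.

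With the replicate number as a block, the calls became 36 between ANCs and APCs and 70 between ANCs and heifers (41 with no block, 8 without the first heifer pool to 68 without the third). Heifers with TCs gave 29 calls at the earlier and 2 at the later weeks, and the early TCs gave 18 with APCs and 17 with ANCs. The rule used for pairing, which needs at least 3 pairs, was met by TCs at weeks 5 and 6 and heifers alone, which are different animals. ANCs and APCs have 2 pairs (both r = 0.26) and did not meet it. The differences and SEs given in the other sections come from fits without a block. The block changed no call of a member between the TC times. The cause of these differences was not tested. Depth limits miR-502a most, with 2 to 55 reads.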

Other observations

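Other marker lists gave these values. The 8 follicular somatic cell miRNAs listed for every group, with miR-21-5p as the most abundant, summed to 78219 to 196626 CPM in APCs, 61751 to 70681 CPM in ANCs and 96733 to 140572 CPM in heifers, and limma called 0 of the 8 tested between APCs and heifers, between ANCs and APCs or between the TC times, with 0, 1 and 0 at an unadjusted p-value under 0.05. edgeR's quasi-likelihood test also called 0 in each, and DESeq2 called 0, 1 and 0. Of all miRNAs tested, limma called 14.5%, 0.0% and 0.0% in these comparisons. The 6 epithelial miRNAs, led by miR-200a, summed to 5737 to 30182 CPM in APCs, 5138 to 8222 CPM in ANCs and 14242 to 22229 CPM in heifers, with miR-205 called lower in APCs than in heifers (log2 difference -1.93, SE 0.43, limma's adjusted p-value 0.0743). The liver miRNA miR-122 ranged from 631 to 5858 CPM in APCs, from 329 to 2926 CPM in ANCs and from 5369 to 17623 CPM in heifers, and limma and edgeR did not call it between APCs and heifers, between ANCs and APCs or between the TC times, whereas DESeq2 called it between APCs and heifers. Between ANCs and heifers all 3 tools called it, lower in ANCs (log2 difference -3.39, SE 0.81, limma's adjusted p-value 0.0396). There each tool also called 5 of the 8 follicular miRNAs and 5 of the 6 epithelial ones, where limma called 41 of all 218 miRNAs tested (18.8%). By limma, 2 follicular miRNAs were higher in ANCs (miR-424-5p by 1.57 and miR-542-5p by 1.28) and 3 lower. The 3 were miR-132 (-3.69, SE 1.04, adjusted p-value 0.0739), miR-503-5p (-1.15, SE 0.52, adjusted p-value 0.218) and miR-21-5p (-1.07, SE 0.33, adjusted p-value 0.0952). The 5 epithelial miRNAs were lower, with miR-205 at -2.23 (SE 0.56, adjusted p-value 0.0448). Without the first heifer pool 0 follicular and 2 epithelial miRNAs were called and miR-122 was not. Without the second heifer pool 2 follicular and 3 epithelial miRNAs were called, and without the first ANC pool 4 and 3. The 2 cluster miRNAs tested gave 0 calls.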
